A study of Mus musculus with 2 samples.

Results

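The genes of fatty acid oxidation and ketone body metabolism were compared between small hepatocytes (SHs) and mature hepatocytes (MHs) of the mouse liver. The set was a list of 39 gene symbols, out of 43280 symbols counted in both libraries. It was chosen by function, as enzymes and carriers of mitochondrial and peroxisomal fatty acid oxidation, ketone body enzymes and targets of the nuclear receptor PPAR-alpha. All 39 symbols were found. Each population was sequenced as a single library, so every difference is one between 2 libraries, without a replicate check and without a test between conditions.

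Both cell populations came from the same C57BL6 mice, whose age is labelled as 20 weeks, while the methods of the study give a younger range for its mice. Livers were digested by collagenase perfusion. MHs were the hepatocytes left after Percoll centrifugation against dead cells, with no sorting on surface markers. SHs, which the study describes as hepatocyte progenitors, were sorted by FACS as cells positive for ICAM-1 and negative for CD31, CD45 and EpCAM. The methods give 3 mice for the isolations, and no genetic change, drug or fasting protocol is given for either group. Poly(A) RNA was sequenced on an Ion Proton instrument.

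The liver burns fatty acids when carbohydrate is scarce. A fatty acid is taken up, bound to a cytosolic carrier and activated to its CoA ester, passes the inner mitochondrial membrane as a carnitine ester, and is then shortened in repeated rounds of dehydrogenation, hydration, a further dehydrogenation and thiolysis. Peroxisomes shorten very long and branched chains by a parallel pathway. The acetyl-CoA released can be made into ketone bodies for other tissues, and PPAR-alpha, a receptor for fatty acids, switches on many of these genes during fasting.

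Counted reads numbered 16979136 for MHs and 42356444 for SHs. Levels are given as reads per 1000000 counted reads (RPM), and differences as the log2 ratio of SHs over MHs after 0.5 reads were added to both counts. Intervals are 95% Clopper-Pearson intervals of the ratio, which treat reads as independent and hold no spread between preparations. Reads without molecular identifiers are not independent molecules, so the intervals may be too narrow even for counting error. In bulk libraries, fewer cells of a type and less RNA per cell cannot be told apart. The 8 hepatocyte marker genes held 7.83% of the reads of MHs and 8.31% of those of SHs, so hepatocyte RNA was abundant in both. The 10 endothelial markers summed to 87.6 RPM in MHs and 4.77 RPM in SHs, with all 10 lower and Lyve1 at 0 in SHs. The 10 macrophage and immune markers summed to 18.3 RPM in MHs and 1.04 RPM in SHs, with Marco at 0 in SHs, and the 10 stellate cell markers to 21.1 and 2.34 RPM. The 7 cholangiocyte markers summed to 21.4 RPM in MHs and 24.4 RPM in SHs, with Cftr at 0 in SHs. The 5 adipocyte markers summed to 0.294 and 0.189 RPM, with Adipoq, Lep and Plin1 at 0 in MHs and Lep and Retn at 0 in SHs. The 10 pericentral markers summed to 2804 RPM in MHs and 740.0 RPM in SHs, and the 12 periportal markers to 17203 and 20500.1 RPM.

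The enzymes that carry out oxidation stood at nearly the same level in both libraries, and a small group of weakly expressed members was lower in SHs. Of the 39 members, 37 had at least 200 reads over both libraries, the minimum used for counts and medians, and the other two were Acot2 and Fgf21. The median log2 ratio of the 37 was -0.04, beside a median of 0.03 over all 9608 genes with as many reads. Among these, 4 of 37 were at least 1.5-fold lower in SHs with an interval wholly under 0, namely Cd36, Vnn1, Pdk4 and Acot1, where 2.1% of all 9608 genes met that rule. No member was at least 1.5-fold higher, a rule that 1.86% of all genes met, and 33 of the 39 members lay within 0.5 of 0 on the log2 scale.

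Promoter sequence is shown for the members on which the comparison turns, in RefSeq windows of 250 bases before the annotated start (build GRCm38.p6, equivalent to mm10). Cd36, Acot1 and Pdk4 were lower in SHs, Fabp1 was the member with the most reads and a ratio near 0, and the Hadhb window lies between the RefSeq starts of the divergent genes Hadha and Hadhb, whose ratios differed. The gene coordinates given with the values are those of GENCODE, which begin further upstream, so each window overlaps the 5′ part of its gene. The Cd36 window belongs to an internal start and lies wholly inside the GENCODE gene. Each is written 5′ to 3′ in the direction of its gene, with capitals for a match to AGGTCANAGGTCA, the direct repeat with a spacing of 1 base at which PPAR-alpha and its partner RXR can bind. The search covered both strands and allowed 2 of the 12 fixed letters to differ.
Cd36, chr5:17835897-17836146, minus strand: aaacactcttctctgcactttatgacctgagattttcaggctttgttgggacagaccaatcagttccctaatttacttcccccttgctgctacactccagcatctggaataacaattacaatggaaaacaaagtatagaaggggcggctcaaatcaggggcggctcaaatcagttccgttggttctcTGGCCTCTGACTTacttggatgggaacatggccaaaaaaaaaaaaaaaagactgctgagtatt
Acot1, chr12:84009252-84009501, plus strand: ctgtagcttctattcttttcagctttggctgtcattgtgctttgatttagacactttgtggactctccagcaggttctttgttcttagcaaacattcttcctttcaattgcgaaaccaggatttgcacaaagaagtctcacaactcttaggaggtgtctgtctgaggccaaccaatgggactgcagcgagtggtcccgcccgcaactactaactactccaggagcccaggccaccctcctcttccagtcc
Pdk4, chr6:5496279-5496528, minus strand: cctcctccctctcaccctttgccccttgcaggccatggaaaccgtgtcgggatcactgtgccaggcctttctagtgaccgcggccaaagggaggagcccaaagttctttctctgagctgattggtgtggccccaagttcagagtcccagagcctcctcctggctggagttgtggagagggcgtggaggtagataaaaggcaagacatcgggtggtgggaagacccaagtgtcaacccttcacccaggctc
Fabp1, chr6:71199629-71199878, plus strand: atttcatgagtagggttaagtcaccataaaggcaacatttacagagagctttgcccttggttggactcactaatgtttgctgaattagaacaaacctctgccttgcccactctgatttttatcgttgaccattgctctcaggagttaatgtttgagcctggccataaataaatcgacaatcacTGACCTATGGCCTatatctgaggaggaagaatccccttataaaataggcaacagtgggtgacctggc
Hadhb, chr5:30155003-30155252, plus strand: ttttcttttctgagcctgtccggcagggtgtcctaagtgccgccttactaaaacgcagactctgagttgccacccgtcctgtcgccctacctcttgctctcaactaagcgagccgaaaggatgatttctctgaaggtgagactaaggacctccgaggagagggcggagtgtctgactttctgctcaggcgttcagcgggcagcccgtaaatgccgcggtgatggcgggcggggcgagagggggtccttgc

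The motif was matched in the windows of 4 of the 33 members that had one, 12.1%, and in those of 3.72% of all 27025 genes with a window. The match of Cd36 differed from the motif at 2 letters and that of Fabp1 at 1 letter, beginning 63 and 67 bases before the start. Etfa and Plin2 held the other matches. A match is a description of the letters and was found in genes with ratios as far apart as those of Cd36 and Fabp1. Hsd17b4, Acaa2, Crat, Acat1, Vnn1 and Decr1 were not searched.

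**Figure D1:**
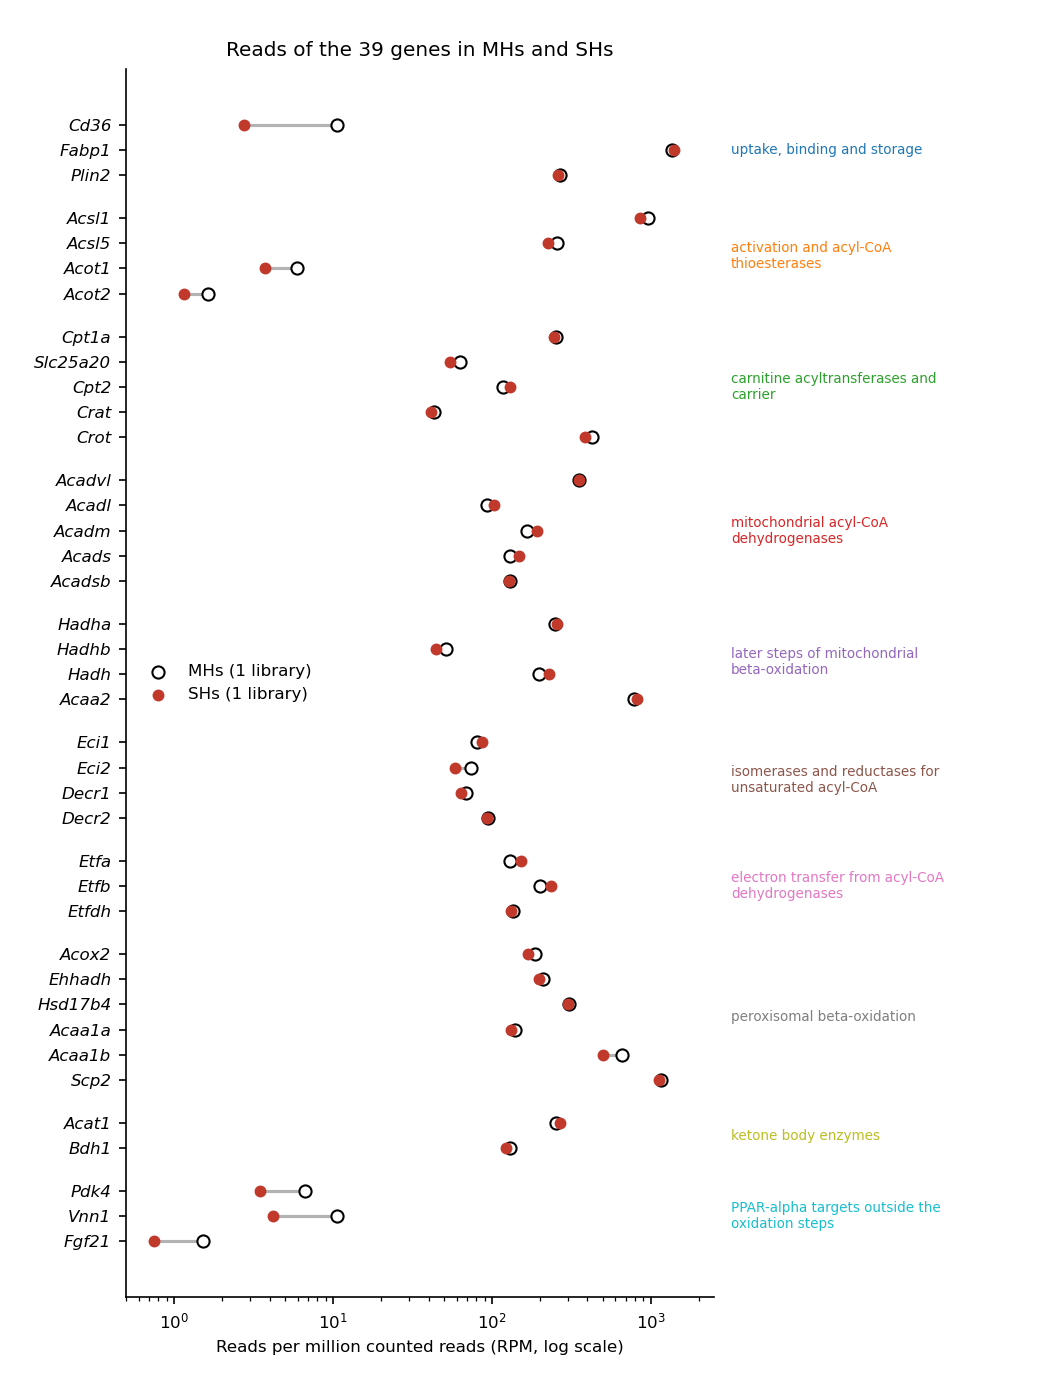
Level of each of the 39 genes in the library of MHs (open circles) and of SHs (filled circles), as RPM on a log scale, grouped by role. The circles of most genes nearly coincide between 41.2 and 1398 RPM, while Cd36, Acot1, Acot2, Pdk4, Vnn1 and Fgf21 lie at 10.7 RPM or less in both libraries, each with the SHs circle to the left.

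Uptake and binding held the lowest ratio of the set beside its most abundant gene. Cd36, a membrane receptor that takes up long-chain fatty acids and is also made by capillary endothelium and macrophages, had 181 reads in MHs and 117 reads in SHs. These were 10.7 RPM in MHs and 2.76 RPM in SHs, which is 3.85-fold lower in SHs (log2 ratio -1.95, interval -2.30 to -1.60). The endothelial markers (87.6 against 4.77 RPM) and the macrophage and immune markers (18.3 against 1.04 RPM) were lower in the same library, and their part in the ratio of Cd36 was not tested. Fabp1, the liver fatty acid binding protein, had 23090 reads in MHs and 59228 in SHs, or 1360 and 1398 RPM. Its log2 ratio was 0.04 (0.02 to 0.06). Plin2, which coats lipid droplets, stood at 267 RPM in MHs and 262 RPM in SHs, and its interval included 0 (-0.08 to 0.02). Cd36 lies at chr5:17781690-17888801 and Fabp1 at chr6:71199827-71205023 of mm10.

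Both acyl-CoA synthetases of the set were slightly lower in SHs, and its thioesterases, Acot1 and Acot2, were weakly expressed in both libraries. Acsl1, the main long-chain acyl-CoA synthetase of hepatocytes, stood at 961 RPM in MHs and 851 RPM in SHs, a log2 ratio of -0.18 (-0.20 to -0.15). Acsl5, a second synthetase of long chains, stood at 257 and 226 RPM, and its log2 ratio was also -0.18 (-0.23 to -0.13). The ratios of both synthetases were thus alike to within counting error. Acot1, the cytosolic thioesterase that splits acyl-CoA back to the free acid, had 101 reads in MHs and 158 reads in SHs, or 5.95 and 3.73 RPM. It was 1.60-fold lower in SHs (log2 ratio -0.68, -1.04 to -0.30). For Acot2, its mitochondrial counterpart, 28 reads were counted in MHs and 49 in SHs, so the interval included 0 (-1.21 to 0.21). The coding sequences of Acot1 and Acot2 are 95.5% identical, so the counting could have moved reads between them. Their summed reads, 129 in MHs and 207 in SHs, gave a log2 ratio of -0.64 (-0.96 to -0.31).

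The carnitine shuttle had small ratios in both directions. Cpt1a, the rate-controlling acyltransferase of the outer membrane, stood at 254 RPM in MHs and 247 RPM in SHs, with an interval of -0.09 to 0.01. Cpt2, which reverses the reaction on the inner membrane, was higher in SHs (118 against 129 RPM, log2 ratio 0.14, 0.06 to 0.21). Slc25a20, the carrier that exchanges acylcarnitine for carnitine between them, stood at 62.9 and 54.3 RPM, a log2 ratio of -0.21 (-0.32 to -0.11). The inner membrane enzyme was thus higher and its carrier lower in SHs, with intervals that do not meet. Crot, the peroxisomal octanoyltransferase, was lower by a log2 ratio of -0.13 (-0.17 to -0.09), at 425 RPM in MHs and 387 RPM in SHs. Crat, which moves acetyl groups, stood at 43.6 and 41.2 RPM with an interval that included 0 (-0.21 to 0.04).

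The mitochondrial acyl-CoA dehydrogenases, which take the first step of each round for chains of different length, were equal or slightly higher in SHs. Acadm, for medium chains, stood at 166 RPM in MHs and 192 RPM in SHs, a log2 ratio of 0.21 (0.15 to 0.27). Acads, for short chains, stood at 130 and 147 RPM (log2 ratio 0.18, 0.11 to 0.25), and Acadl, for long chains, at 92.8 and 103.9 RPM (log2 ratio 0.16, 0.08 to 0.25). Acadvl, for very long chains, had almost the same level in both, 352.4 and 353.1 RPM, with an interval of -0.04 to 0.05. Acadsb, for short branched chains from amino acids, stood at 130.0 and 128.7 RPM with an interval of -0.09 to 0.06. The reads of the 5 dehydrogenases together gave a log2 ratio of 0.09 (0.06 to 0.11).

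The electrons from these enzymes pass to the electron transfer flavoprotein, whose subunits had the highest ratios of the set together with Hadh. Etfa, the alpha subunit, stood at 130 RPM in MHs and 153 RPM in SHs, a log2 ratio of 0.23 (0.16 to 0.30). Etfb, the beta subunit, stood at 202 and 235 RPM, a log2 ratio of 0.22 (0.16 to 0.28). The values of the paired subunits were alike. Etfdh, the oxidoreductase that hands the electrons to ubiquinone, stood at 136 and 132 RPM. Its interval, -0.11 to 0.03, lay under those of both subunits.

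Among the later steps of the round, the subunits of the mitochondrial trifunctional protein differed from each other. Hadha, the alpha subunit with the hydratase and dehydrogenase activities, had 4256 reads in MHs and 10876 in SHs, or 251 and 257 RPM, with an interval of -0.02 to 0.09. Hadhb, the beta subunit with the thiolase activity, had 870 reads in MHs and 1879 in SHs, or 51.2 and 44.4 RPM, a log2 ratio of -0.21 (-0.32 to -0.09). The ratio of Hadha was higher by 0.24 on the log2 scale and the intervals did not overlap. The genes are neighbours transcribed away from each other, at chr5:30118304-30155162 on the minus strand and chr5:30155248-30184593 on the plus strand, and their RefSeq starts have 272 bases between them, so the window printed for Hadhb covers most of that stretch. Per length, Hadhb stood at 25.02 reads per kilobase per 1000000 counted reads (RPKM) in MHs and Hadha at 62.4 RPKM. Hadh, the dehydrogenase for shorter hydroxyacyl chains, stood at 197 RPM in MHs and 230 RPM in SHs, a log2 ratio of 0.22 (0.17 to 0.28). Acaa2, the thiolase that ends the round, stood at 780 and 825 RPM, a log2 ratio of 0.08 (0.05 to 0.11).

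Unsaturated chains need isomerases and reductases, and these had mixed ratios. Eci2, an enoyl-CoA isomerase found in mitochondria and peroxisomes, stood at 74.1 RPM in MHs and 58.6 RPM in SHs, a log2 ratio of -0.34 (-0.44 to -0.24). Eci1, the mitochondrial isomerase, stood at 80.6 and 86.6 RPM, a log2 ratio of 0.10 (0.01 to 0.19). The isomerases thus lay on opposite sides of 0, with a difference of 0.44 on the log2 scale. Decr1, the mitochondrial dienoyl-CoA reductase, stood at 69.3 and 63.7 RPM (log2 ratio -0.12, -0.22 to -0.02), and Decr2, the peroxisomal one, at 94.2 and 93.8 RPM with an interval of -0.09 to 0.08.

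**Figure D2:**
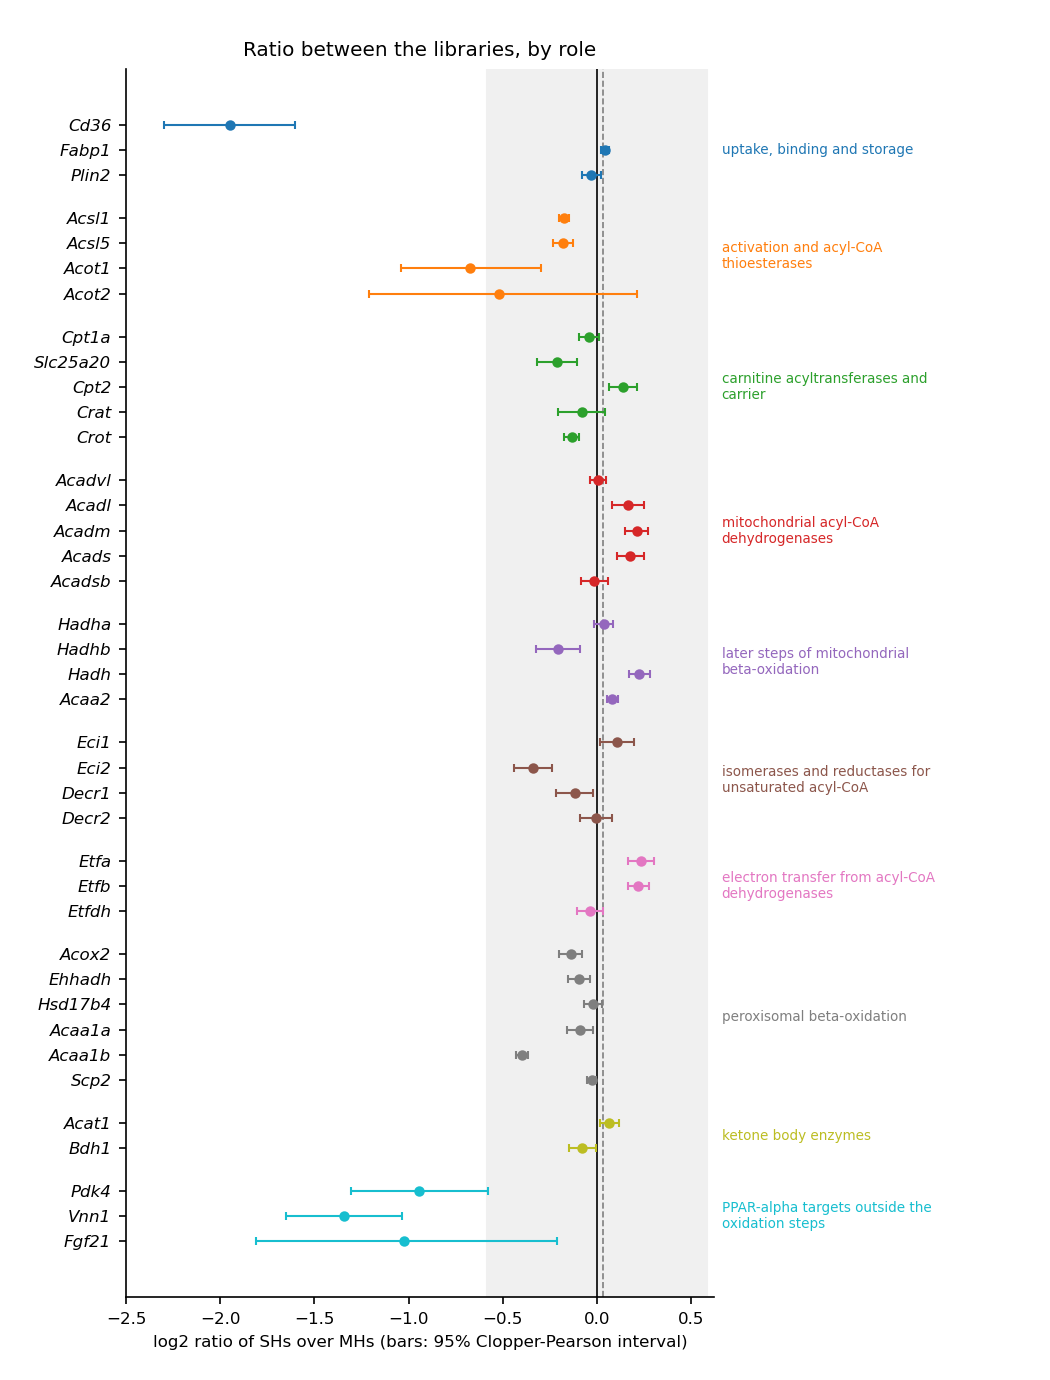
The log2 ratio of SHs over MHs for each of the 39 genes (points) with its 95% Clopper-Pearson interval (bars), coloured by role. The grey band marks ratios within 1.5-fold, the dashed line the median of all genes (0.03), and the points of Cd36, Acot1, Pdk4, Vnn1 and Fgf21 lie to the left of the band.

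The peroxisomal enzymes of the set were slightly lower in SHs. With scaling by library totals, 6 of the 6 ratios were under 0, as were 4247 of all 9608 genes with at least 200 reads. Only 4 of 6 ratios were under 0 when the 10 genes with the most reads were left out of the totals. The interval lay wholly under 0 for 5 of the 6, where it did so for 35.8% of all genes with at least 5000 reads, as each of these has. Their reads summed to 2653 RPM in MHs and 2429 RPM in SHs, a log2 ratio of -0.13 (-0.14 to -0.11). Acaa1b, a peroxisomal thiolase, had most of this difference, with 657 RPM in MHs and 498 RPM in SHs and a log2 ratio of -0.40 (-0.43 to -0.37). Its near copy Acaa1a stood at 140 and 132 RPM, a log2 ratio of -0.09 (-0.16 to -0.02). Their coding sequences are 96.5% identical, so single values are uncertain, and their summed reads gave a log2 ratio of -0.34 (-0.37 to -0.31). Acox2, the oxidase for branched chains and bile acid precursors, stood at 188 and 170 RPM (log2 ratio -0.14, -0.20 to -0.08). Ehhadh, the bifunctional hydratase and dehydrogenase, stood at 210 and 197 RPM (log2 ratio -0.10, -0.15 to -0.04). Hsd17b4, the second bifunctional enzyme, stood at 304 and 300 RPM with an interval that included 0 (-0.07 to 0.03). Scp2, which carries sterols and includes a thiolase, stood at 1154 and 1132 RPM, a log2 ratio of -0.03 (-0.05 to -0.0037), and turned to 0.0037 with the totals that left out 10 genes.

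The ketone body enzymes in the set were near equality. Acat1, the thiolase that joins acetyl-CoA units, stood at 255 RPM in MHs and 267 RPM in SHs, a log2 ratio of 0.06 (0.01 to 0.12). Bdh1, which turns acetoacetate into beta-hydroxybutyrate, stood at 129 and 123 RPM, a log2 ratio of -0.08 (-0.15 to -0.01). Their summed reads gave a ratio whose interval included 0 (-0.02 to 0.06).

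Vnn1, Pdk4 and Fgf21, grouped here as PPAR-alpha targets outside the oxidation steps, were weakly expressed in both libraries and lower in SHs. The group does not hold every PPAR-alpha target of the set, since other members were placed by their step in the pathway. Vnn1, a pantetheinase that recycles the vitamin part of CoA, had 180 reads in MHs and 177 reads in SHs, although the library of SHs was the deeper one. These were 10.6 RPM in MHs and 4.18 RPM in SHs, or 2.54-fold lower (log2 ratio -1.34, -1.65 to -1.04). Pdk4, the kinase that turns off pyruvate dehydrogenase and so spares glucose, had 114 reads in MHs and 148 in SHs. These were 6.71 and 3.49 RPM, or 1.92-fold lower in SHs (log2 ratio -0.94, -1.30 to -0.58). Fgf21, a hormone that the liver releases on fasting, had 26 reads in MHs and 32 in SHs, or 1.53 and 0.755 RPM, with a wide interval (-1.81 to -0.21). The 3 genes together gave 18.8 RPM in MHs and 8.43 RPM in SHs (log2 ratio -1.16, -1.38 to -0.94). The pericentral markers were lower in the same library, 2804 against 740.0 RPM, and their part in these ratios was not tested. Vnn1 lies at chr10:23894688-23905343, Pdk4 at chr6:5483351-5496309, Acot1 at chr12:84009490-84018371 and Fgf21 at chr7:45613886-45615490 of mm10.

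Per length, the levels of the set spanned a wide range in both libraries. In MHs the highest were Fabp1 at 2459 RPKM, Acaa2 at 514 RPKM, Scp2 at 437 RPKM, Acaa1b at 389 RPKM and Acsl1 at 247 RPKM. In SHs, Fabp1 stood at 2529 RPKM and Acaa2 at 544 RPKM. The 6 lowest in both libraries were Vnn1, Cd36, Acot1, Pdk4, Fgf21 and Acot2, from 4.39 RPKM down to 0.751 RPKM in MHs and from 1.73 down to 0.527 RPKM in SHs. The members that were at least 1.5-fold lower in SHs were thus among those with the lowest levels.

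Counted over the 37 members with at least 200 reads, 24 ratios were under 0 and 13 above with library totals. Over all 9608 genes with as many reads, 4247 were under 0 and 5361 above. With the totals that left out 10 genes, 19 of the 37 were under 0, and the median of all genes was 0.06. The interval lay wholly under 0 for 17 of 37, where 16.9% of all genes did so, and wholly above 0 for 11 of 37, where 23.2% did so. Reads set how narrow an interval is, and the members have many. Among genes with at least 5000 reads, 9 of 28 members had an interval wholly under 0, beside 35.8% of all such genes, and 11 of 28 had one wholly above 0, beside 42.9%. At that depth the share of members with such an interval was thus no higher than that of all genes, on either side of 0. The 5 members with 1000 to 4999 reads had a median log2 ratio of -0.21, beside 0.04 for all 3756 genes in that range. Of these, Slc25a20, Hadhb, Eci2 and Decr1 had intervals wholly under 0, and that of Crat included 0. The share of all genes with such an interval was not computed for that range. Of the members with 200 or more but under 400 reads, 4 of 4 were at least 1.5-fold lower, beside 4.08% of all genes in that range. Cd36, Acot1, Pdk4, Vnn1 and Eci2 lay under the 5th percentile of genes with like read numbers and none lay over the 95th.

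**Figure D3:**
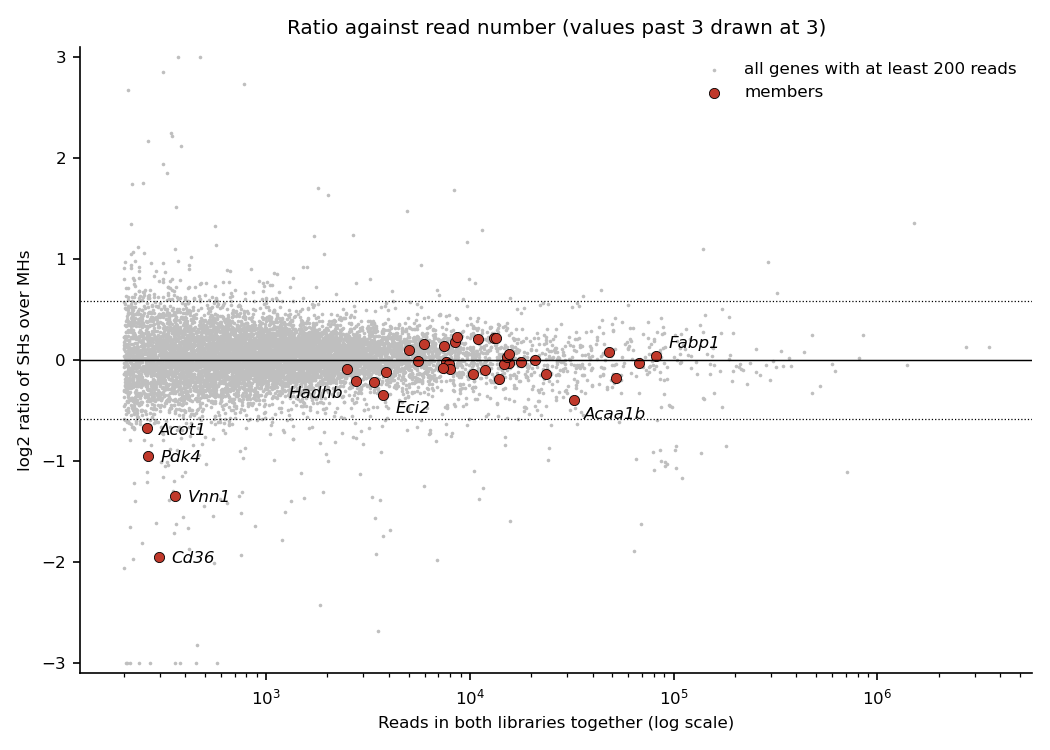
The log2 ratio of SHs over MHs against the reads of both libraries together (log scale) for all 9608 genes with at least 200 reads (grey) and the 37 members among them (red), with dotted lines at 1.5-fold. The red points with at least 1000 reads lie between the dotted lines, while Acot1, Pdk4, Vnn1 and Cd36, with under 400 reads each, lie under the lower line.

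The acyl-CoA dehydrogenases, the later steps, the isomerases and reductases and the flavoprotein group made up 16 members, among them the peroxisomal Decr2 and Eci2, which is found in both organelles. Their median log2 ratio was 0.06, with 10 above 0 and 6 under it. All 9608 genes with at least 200 reads had a median of 0.03, with 5361 above 0 and 4247 under it. The reads of the 16 summed to 2936 RPM in MHs and 3104 RPM in SHs (log2 ratio 0.08, 0.065 to 0.095). Without Decr2 and Eci2, the 14 members had a median of 0.09 with 10 above 0 and 4 under it. This choice was made after the values were seen and left out Eci2, the lowest of the 16. The reads of the 14 summed to 2768 RPM in MHs and 2952 RPM in SHs (log2 ratio 0.09, 0.08 to 0.11). The 21 members of the other groups with at least 200 reads had a median of -0.10, with 18 under 0 and 3 above. These counts shifted with the scaling, since the ratios of Acadsb, Decr2, Plin2, Scp2 and Hsd17b4 turned above 0 when 10 genes were left out of the totals. All members together took 0.976% of the reads of MHs (0.971 to 0.981) and 0.9534% of those of SHs (0.9505 to 0.9563).

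A wider list of 70 other genes of the pathway had 61 with at least 200 reads. Their median log2 ratio was 0.05, beside 0.03 for all 9608 genes with as many reads. Of the 61, 27 were under 0 and 34 above, where 4247 of the 9608 were under 0 and 5361 above. Intervals lay wholly under 0 for 21 of 61 (16.9% of all genes) and wholly above for 23 of 61 (23.2% of all genes). Reads set how narrow an interval is, and 50 of the 61 had at least 1000 reads, so these shares are not at like depth. The 13 further genes of mitochondrial oxidation had a median of 0.11, the 13 of transport and activation -0.09, the 15 of peroxisomal oxidation -0.02 and the 7 of ketone bodies 0.11. The 13 regulators and other PPAR-alpha targets had a median of 0.08, with 5 under 0 and 8 above. Vnn1 and Pdk4 had a median of -1.14. The 13 mix regulators with targets, so their median is not one of targets alone. At least 1.5-fold lower in SHs were 4 of 61, beside 2.1% of all genes, and higher 0 of 61, beside 1.86%. The lowest was Aldh3a2, the fatty aldehyde dehydrogenase, with 2269 reads in MHs and 1770 in SHs, or 134 and 41.8 RPM (log2 ratio -1.68, -1.77 to -1.59). Fitm1, a protein of lipid droplet formation, had 370 and 364 reads, or 21.8 and 8.59 RPM (log2 ratio -1.34, -1.56 to -1.13). Txnip, an inhibitor of thioredoxin that responds to glucose, stood at 192 RPM in MHs and 116 RPM in SHs (log2 ratio -0.72, -0.78 to -0.66). The fourth, Slc16a7, a carrier of monocarboxylates, had a log2 ratio of -0.59 and was named after its value was seen. The highest were Bdh2, a cytosolic hydroxybutyrate dehydrogenase, at 22.7 and 33.5 RPM (log2 ratio 0.56, 0.40 to 0.73), Ppargc1b, a coactivator of nuclear receptors (0.44, 0.16 to 0.74), and Acot4, a peroxisomal thioesterase (0.38, 0.10 to 0.69).

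**Figure D4:**
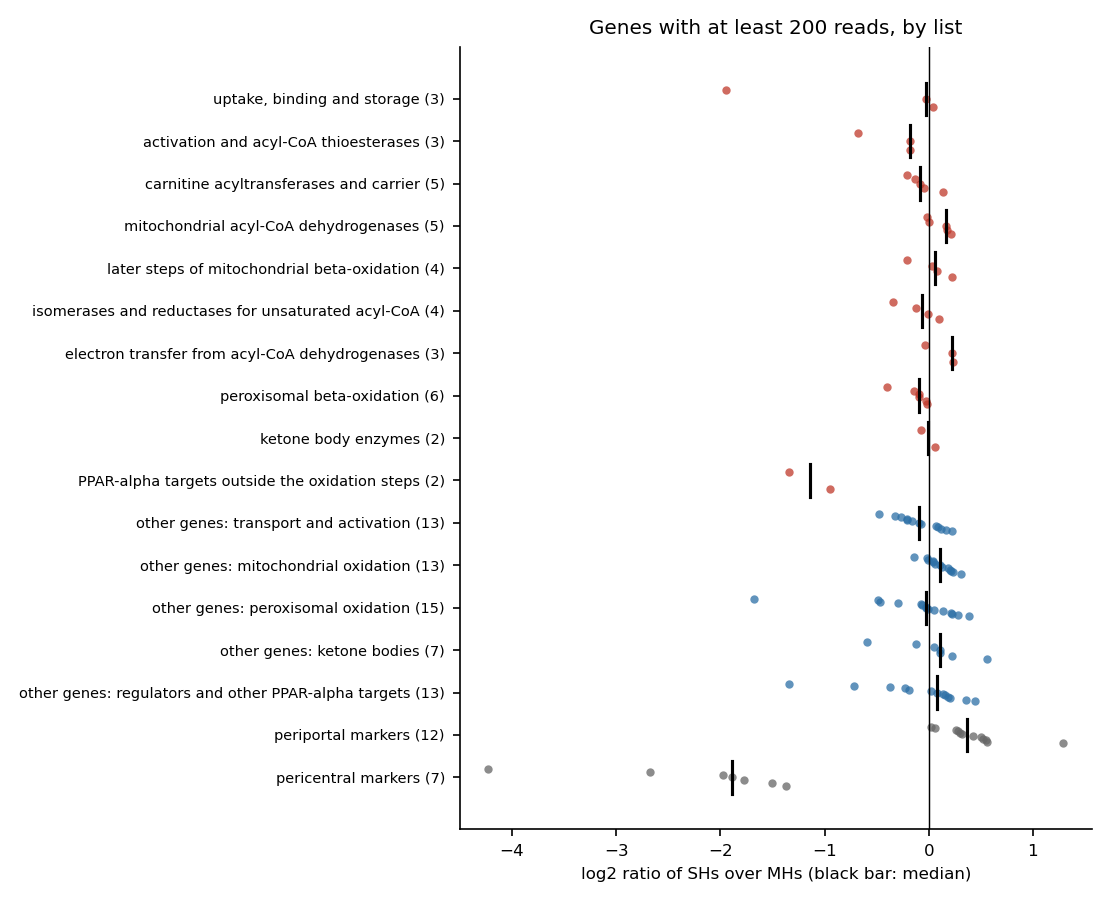
The log2 ratio of SHs over MHs for genes with at least 200 reads, by role of the members (red), by list of the other pathway genes (blue) and for the periportal and pericentral markers (grey), with black bars at the medians and the number of genes in brackets. The medians of the oxidation roles lie within 0.22 of 0. The bar at -1.14 is that of Vnn1 and Pdk4, labelled as PPAR-alpha targets outside the oxidation steps. PPAR-alpha targets placed in other roles are not in that bar.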

How the data were processed

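SHs and MHs were each sequenced as 1 RNA-seq library. The authors deposited whole read counts per gene symbol, without normalization. In their methods, reads were trimmed, aligned to mm10 in CLC Genomics Workbench and expressed as RPKM. The program, the annotation and the use of strand behind the counts are not given in the sources used here. Reads of overlapping genes are therefore uncertain (Acsl5, Crat, Acadvl and Acaa1a overlap exons of an opposite-strand gene with over 100 reads).

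RPM, log2 ratios with 0.5 reads added and 95% Clopper-Pearson intervals were computed from the counts in Python 3.11.15 (numpy 2.4.6, pandas 2.3.3, scipy 1.17.1). Depth was 16979136 reads in MHs, where 3 reads equal 0.177 RPM, and 42356444 in SHs, where they equal 0.0708 RPM. Calls and medians were restricted to genes with a summed count of at least 200 reads. RPKM used the longest protein-coding transcript of GENCODE M21 (mm10) for 39 of 39 members. A member was called when its ratio was at least 1.5-fold and its interval lay on that side of 0. The bins of read number were chosen after the values were seen. Sequence identity of near copies used Biopython 1.88, figures matplotlib 3.10.9. The macrophage marker Adgre1 was matched by its older symbol Emr1. The scripts were tested on simulated data. The design of 1 library per group allows no test, so p-values are not given.

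The members and lists were chosen with earlier results of these data known. The genes named were all members and, of the other pathway genes, the 3 lowest and 3 highest ratios. Slc16a7, Ppara, Rxra, Creb3l3, Ppargc1a and Pdk2 fall outside this rule and were chosen after their values were seen. Markers of other cell types were used as whole lists, and their members were named where they stood at 0. Alternatives were edgeR 4.0.16 TMM sizes and DESeq2 1.42.0 size factors (R 4.3.3), totals that leave out the 10 most counted genes, 2 added reads, minima of 10 and 1000 reads, and folds of 1.2 and 2.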

Additional observations from a re-analysis of the deposited data

How the results depend on the processing

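No paired analysis was possible because each group held a single library. The 4 members at least 1.5-fold lower in SHs became 6 at 1.2-fold and 2 at 2-fold. They became 5 with at least 10 reads and 0 with at least 1000 reads, since all 4 have under 1000. The log2 ratio of the summed reads, -0.03, became -0.0241 with TMM, -0.0246 with DESeq2 size factors, -0.0022 when the totals left out the 10 most counted genes and -0.046 without Fabp1. With the totals that left out 10 genes, all ratios moved up by 0.03, Scp2 went from -0.03 to 0.0037, and the interval of 5 members began or ceased to include 0. The members' median stayed between -0.04 and -0.01 over the alternatives run. No alternative can replace a second library, and Fgf21 (58 reads) and Acot2 (77 reads) are limited by depth.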

Other observations

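The regulators of the pathway were measured in both libraries. They were chosen for mention after their values were seen, except Ppargc1b. Ppara, the gene of PPAR-alpha, had 1668 reads in MHs and 3557 reads in SHs, a log2 ratio of -0.23 (-0.31 to -0.14). Rxra, its partner receptor, had a log2 ratio of 0.19 (0.14 to 0.23). Creb3l3, a liver transcription factor of the fasting response, stood near equality at 0.02 (-0.03 to 0.07). The interval of Ppargc1a, a coactivator of oxidation genes, included 0 (-0.13 to 0.45), while Ppargc1b had a log2 ratio of 0.44 (0.16 to 0.74).

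Among the acyl-CoA thioesterases, Acot1 and Acot4 differed in direction, while the others of the wider list had ratios on both sides of 0. Acot4 lies near Acot1, at chr12:84038379-84048601, and whether the counting moved reads between them was not tested. Acot1 stood at 5.95 RPM in MHs and 3.73 RPM in SHs (log2 ratio -0.68), and Acot4 at 7.36 and 9.63 RPM (log2 ratio 0.38). The pyruvate dehydrogenase kinases also differed, with Pdk4 at a log2 ratio of -0.94 (-1.30 to -0.58) and Pdk2, which was likewise chosen after its value was seen, at 0.36 (0.25 to 0.47).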
